A study of Heterocephalus glaber with 2 samples.

Results

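The glutathione, thioredoxin and NRF2 genes of naked mole-rat skin fibroblasts (NSFs) form a set of 36 genes among the 37520 that were listed. They were chosen by symbol: 14 are the glutathione transferases (*Gst*), microsomal glutathione transferases (*Mgst*) and glutathione peroxidases (*Gpx*) entered under a family symbol, and 22 are named enzymes, carriers and regulators. RNA of NSFs was sequenced as 1 *shβ-catenin* library and 1 shControl library, to ask how β-catenin supports lipid droplets rich in cholesterol. The NSFs were primary cells of adult animals kept cool and under low oxygen. The *shβ-catenin* cells carried a lentiviral hairpin (#1) against *β-catenin* and the shControl cells the empty vector, which has no hairpin, and both were selected with puromycin.

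Cells detoxify peroxides and reactive compounds with a pair of thiol systems. Glutathione, a tripeptide made from imported cystine, is the electron donor of the peroxidases and is joined to reactive molecules by the transferases. Thioredoxin and glutaredoxin reduce oxidized proteins, and reductases that consume NADPH restore both systems. NRF2, the product of *Nfe2l2*, is the transcription factor that raises many of these genes under oxidative or electrophilic stress, while KEAP1 marks it for breakdown and BACH1 competes for its binding sites.

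Most of these genes differed by less than 1.5-fold between the libraries, as did most of all genes tested. Levels are FPKM, fragments per length of exon and relative to the mapped total, so that genes can be compared per length. Fold-changes are log2 of *shβ-catenin* over shControl after adding 0.1 FPKM to each, which understates the change of low genes, while plain folds are ratios of the FPKM values. Each condition had 1 library, which leaves no replicate error, test or p-value, and every difference below describes these libraries only. Because RNA was taken in bulk, less RNA per cell and fewer cells of a type cannot be told apart.

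Of the 36 genes, 32 had a mean of at least 1 FPKM, and 4 did not. No gene of the 32 differed by more than 4-fold in either direction, the threshold that the study used, against 0.68% of all 13097 genes of at least 1 FPKM that were more than 4-fold higher and 0.206% that were more than 4-fold lower. A single gene, *Gpx3*, was more than 2-fold higher and none was more than 2-fold lower (3.27% and 2.05% of all genes). *Gpx3* was also the one gene past 1.5-fold (8.22% of all genes were more than 1.5-fold higher and 7.02% lower). When the libraries were scaled to their upper quartile, *Txnrd1* and *Glrx* also passed 1.5-fold, which made 3. By any amount, *shβ-catenin* cells had 12 genes higher and 20 lower (14 and 18 with upper quartile scaling), while 48.7% of all genes were higher and 51.3% lower. The median log2 fold-change of the 32 genes was −0.12, with the middle 50% between −0.31 and 0.10. For all genes tested the median was −0.010, with the middle 50% between −0.24 and 0.21.

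**Figure D1:**
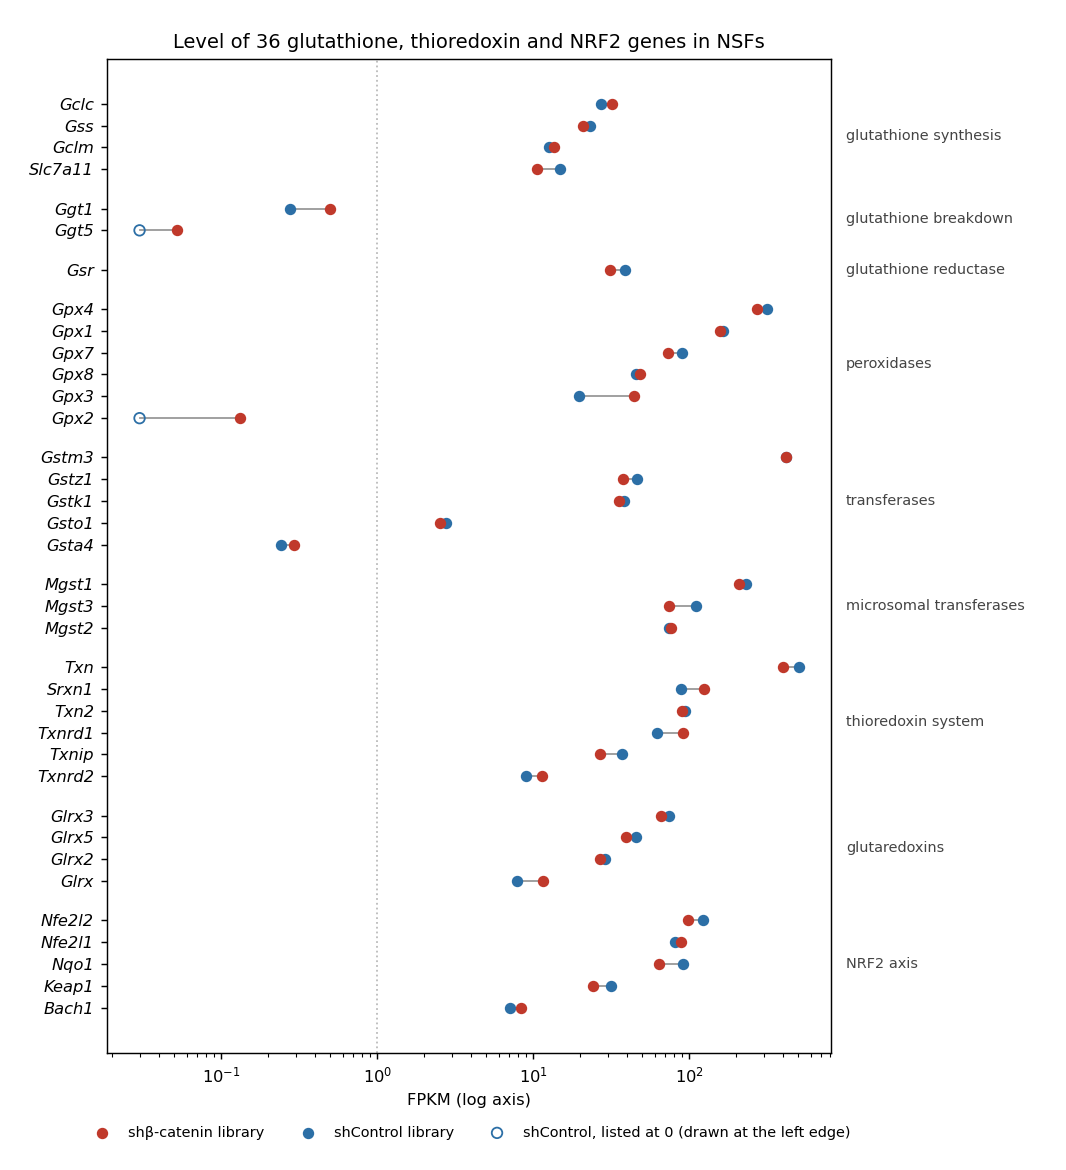
FPKM of each of the 36 genes on a log axis, grouped by role, with the *shβ-catenin* library in red and the shControl library in blue and a dotted line at 1 FPKM. The levels span from *Txn* and *Gstm3*, above the other genes at 397 to 502 FPKM, to 4 genes left of the line, and the widest gap among the genes right of it is that of *Gpx3*.

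The set was abundant as a whole. Its FPKM values summed to 2723 in the *shβ-catenin* library and 2958 in the shControl library, which is 0.460% and 0.485% of all FPKM. The 4 highest genes of each library made up 47.5% of the set's sum in *shβ-catenin* cells and 49.6% in shControl cells. These were *Gstm3*, *Txn*, *Gpx4* and *Mgst1*. *Gstm3* ranked 191 and *Txn* 198 among all genes of the *shβ-catenin* library, against ranks 202 and 175 in the shControl library.

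The supply of glutathione showed no common direction. *Slc7a11*, which encodes xCT, the importer of cystine, was listed at 10.6 FPKM in *shβ-catenin* cells and 14.9 FPKM in shControl cells, a 1.40-fold lower value (log2 fold-change −0.48). The subunits of glutamate-cysteine ligase, the rate-limiting enzyme of glutathione synthesis, were slightly higher. Its catalytic subunit *Gclc* was listed at 31.8 FPKM in *shβ-catenin* and 27.2 FPKM in shControl cells (1.17-fold), and its modifier subunit *Gclm* at 13.5 and 12.7 FPKM (1.06-fold). *Gss*, the synthetase of the last step, was listed at 20.9 FPKM in *shβ-catenin* cells and 23.2 FPKM in shControl cells. The *Gclm* level per *Gclc* level was 0.424 in the *shβ-catenin* library and 0.467 in the shControl library. The median log2 fold-change of these 4 genes was −0.031 (0.048 with upper quartile scaling). *Gsr*, the reductase that regenerates glutathione with NADPH, was 1.24-fold lower, at 31.0 FPKM in *shβ-catenin* and 38.5 FPKM in shControl cells.

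Breakdown of glutathione outside the cell was barely represented. *Ggt1*, a γ-glutamyltransferase of the cell surface, was listed at 0.496 FPKM in *shβ-catenin* cells and 0.275 FPKM in shControl cells. The smallest whole numbers of fragments that give this ratio are 3 in *shβ-catenin* and 2 in shControl cells, and at those numbers the exact Clopper-Pearson 95% interval of the 1.80-fold ratio ran from 0.207 to 21.6. A difference in *Ggt1* was therefore not detectable at this depth if these were the counts. *Ggt5*, a related enzyme, was listed at 0.0523 FPKM in *shβ-catenin* cells and at 0 in shControl cells, so no fold is given.

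The glutathione peroxidases held the widest difference of the set. *Gpx3*, a selenium-containing peroxidase that cells secrete and that is best known from plasma, was listed at 44.2 FPKM in the *shβ-catenin* library and 19.6 FPKM in the shControl library. It was 2.25-fold higher after knockdown (log2 fold-change 1.17), above 97.6% of all genes tested. Its rank among all genes was 2034 in *shβ-catenin* and 4422 in shControl cells. The other peroxidases of at least 1 FPKM differed by at most 1.23-fold. *Gpx4*, which reduces lipid hydroperoxides within membranes and is known as the main guard against ferroptosis, was listed at 271 FPKM in *shβ-catenin* cells and 317 FPKM in shControl cells (1.17-fold lower). *Gpx1*, the general peroxidase of the cytosol, was listed at 156 FPKM in *shβ-catenin* and 165 FPKM in shControl cells. Its log2 fold-change was −0.077, and 0.0017 with upper quartile scaling.

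*Gpx7* and *Gpx8*, which act in the endoplasmic reticulum and use cysteine in place of selenocysteine, went apart slightly. *Gpx7* was listed at 73.6 FPKM in *shβ-catenin* and 90.4 FPKM in shControl cells, and *Gpx8* at 48.4 and 45.3 FPKM. *Gpx2*, the peroxidase known from the gut epithelium, was listed at 0.132 FPKM in *shβ-catenin* cells and at 0 in shControl cells. Summed over the family, the peroxidases came to 594 FPKM in the *shβ-catenin* library and 638 FPKM in the shControl library. Of the 5 peroxidases of at least 1 FPKM, *Gpx3* was the lowest in both libraries, although in *shβ-catenin* cells it came close to *Gpx8*.

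The cytosolic and mitochondrial transferases, which attach glutathione to reactive compounds, were close to even. *Gstm3*, a transferase of the mu class and the highest of them, was listed at 419 FPKM in *shβ-catenin* cells and 418 FPKM in shControl cells. *Gstk1*, a kappa class enzyme of mitochondria and peroxisomes, was listed at 35.7 FPKM in *shβ-catenin* and 38.2 FPKM in shControl cells. *Gstz1*, which also isomerizes maleylacetoacetate in tyrosine breakdown, was 1.24-fold lower, at 37.5 against 46.3 FPKM. *Gsto1*, an omega class enzyme with thioltransferase activity, was listed at only 2.53 FPKM in *shβ-catenin* and 2.77 FPKM in shControl cells. *Gsta4*, which conjugates 4-hydroxynonenal, a product of lipid peroxidation, was listed at 0.291 FPKM in *shβ-catenin* and 0.242 FPKM in shControl cells. The smallest whole numbers of fragments that give this ratio are 1 in each library, with a 95% interval of 0.0153 to 94.4. Larger equal numbers would give the same ratio and a narrower interval. The rule took genes by symbol, so transferases entered under a locus number are not among these 5, and reads of near-identical transferase copies may have been divided between entries.

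*Mgst3* gave the lowest fold-change of the set. This membrane-bound transferase and peroxidase was listed at 74.0 FPKM in *shβ-catenin* cells and 110.3 FPKM in shControl cells, which is 1.49-fold lower (log2 fold-change −0.57). Of all genes tested, 7.36% had a lower fold-change. *Mgst1*, which protects membranes of the endoplasmic reticulum and mitochondria, was listed at 207 FPKM in *shβ-catenin* and 230 FPKM in shControl cells. *Mgst2*, which can also make leukotriene C4, was listed at 76.0 and 73.8 FPKM. The order of *Mgst2* and *Mgst3* thus differed between the libraries, with *Mgst3* marginally the lower of the pair in *shβ-catenin* cells and clearly the higher in shControl cells.

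In the thioredoxin system the reductases were higher and cytosolic thioredoxin lower. *Txnrd1*, the selenoprotein that reduces cytosolic thioredoxin, was listed at 91.7 FPKM in *shβ-catenin* cells and 62.5 FPKM in shControl cells (1.47-fold higher, log2 fold-change 0.55). *Txnrd2*, its mitochondrial counterpart, was 1.28-fold higher, at 11.4 against 8.97 FPKM. *Txn*, the cytosolic thioredoxin, was listed at 397 FPKM in *shβ-catenin* and 502 FPKM in shControl cells, 1.26-fold lower. This was the largest difference of the set in FPKM, −104 FPKM. The *Txn* level per *Txnrd1* level was thus 4.34 in the *shβ-catenin* library and 8.04 in the shControl library. For the mitochondrial pair the ratio of *Txn2* to *Txnrd2* was 7.84 in *shβ-catenin* and 10.4 in shControl cells, although *Txn2* itself was listed at 89.7 and 93.4 FPKM (log2 fold-change −0.058, and 0.020 with upper quartile scaling).

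*Txnip* and *Srxn1* stood on opposite sides. *Txnip*, which binds and inhibits thioredoxin and limits glucose uptake, was listed at 26.9 FPKM in *shβ-catenin* cells and 37.3 FPKM in shControl cells (1.38-fold lower). *Srxn1*, the sulfiredoxin that restores overoxidized peroxiredoxins, was listed at 125 FPKM in *shβ-catenin* and 88.3 FPKM in shControl cells (1.41-fold higher, log2 fold-change 0.50). The *Txn* level per *Txnip* level was 14.8 in *shβ-catenin* and 13.5 in shControl cells, since both genes were lower. The *Txnrd1* level per *Gsr* level, the reductases of the 2 systems, was 2.96 in the *shβ-catenin* library and 1.62 in the shControl library.

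Among the glutaredoxins *Glrx* differed from the rest. *Glrx*, the cytosolic enzyme that removes glutathione from proteins, was listed at 11.6 FPKM in *shβ-catenin* and 7.85 FPKM in shControl cells, 1.47-fold higher, and remained the lowest of the 4 in both libraries. The mitochondrial *Glrx2* was listed at 26.7 FPKM in *shβ-catenin* cells and 28.9 FPKM in shControl cells. *Glrx3* and *Glrx5*, which serve in iron-sulfur cluster and iron handling, were listed at 66.2 and 39.5 FPKM in *shβ-catenin* cells and at 74.2 and 45.8 FPKM in shControl cells. The 3 genes other than *Glrx* were therefore lower by at most 1.16-fold.

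The regulators of the NRF2 axis were moderately lower or slightly higher. *Nfe2l2* was listed at 97.9 FPKM in *shβ-catenin* cells and 123 FPKM in shControl cells (1.26-fold lower, log2 fold-change −0.33). *Keap1*, its inhibitor, was lower by a like amount, at 24.2 FPKM in *shβ-catenin* and 31.5 FPKM in shControl cells (1.30-fold), so that the *Nfe2l2* level per *Keap1* level was 4.04 and 3.90. *Bach1*, the heme-regulated repressor, was listed at 8.39 FPKM in *shβ-catenin* cells and 7.11 FPKM in shControl cells. The *Nfe2l2* level per *Bach1* level was 11.7 in *shβ-catenin* and 17.3 in shControl cells. *Nfe2l1*, a related factor known for inducing proteasome genes, was listed at 88.2 and 81.5 FPKM. *Nqo1*, the quinone reductase that is widely used as a readout of NRF2, was 1.43-fold lower, at 64.3 FPKM in *shβ-catenin* against 91.7 FPKM in shControl cells (log2 fold-change −0.51).

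**Figure D2:**
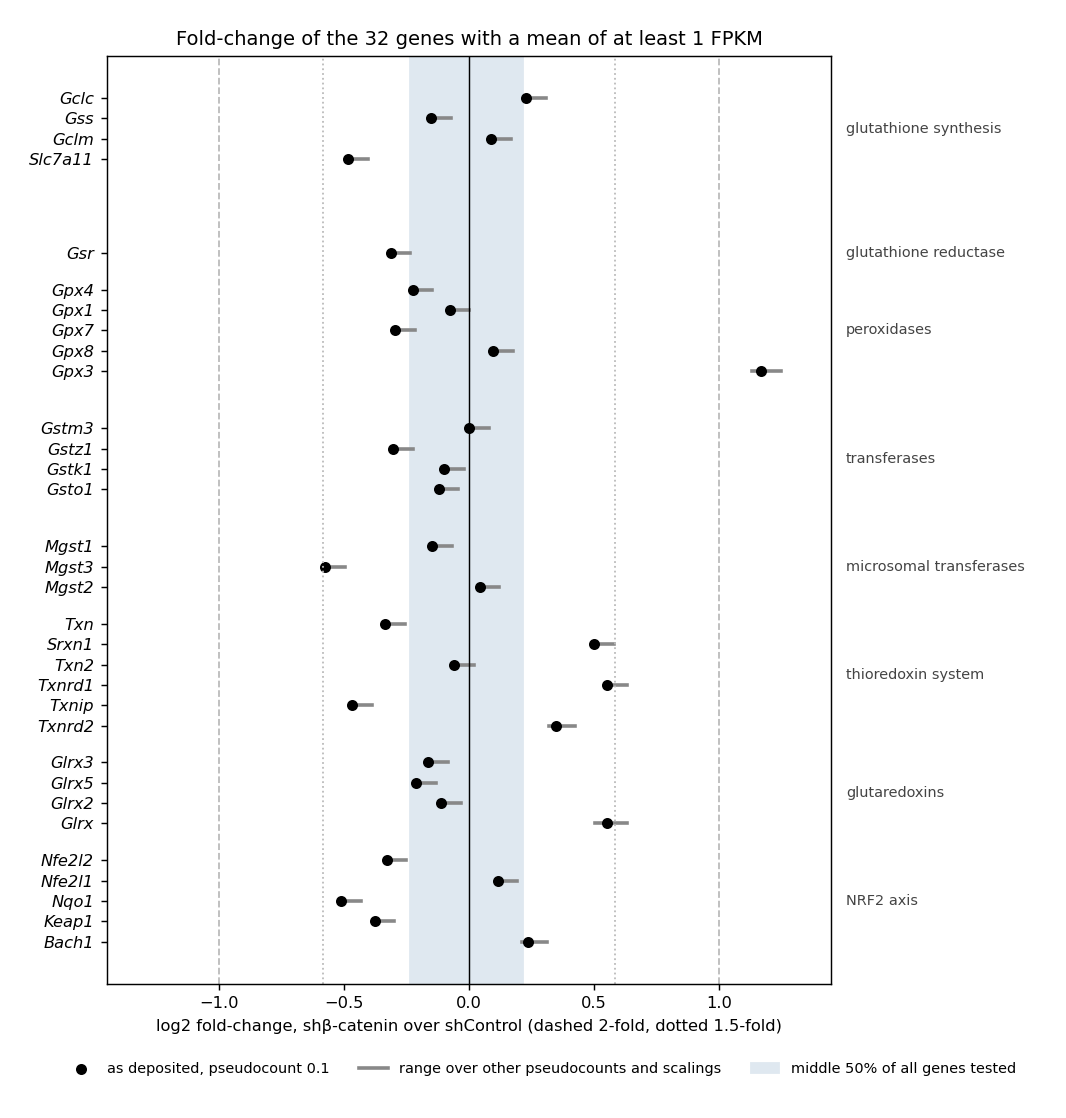
Log2 fold-change of *shβ-catenin* over shControl for the 32 genes whose FPKM averaged 1 or more, grouped by role. Points are the values as deposited with a pseudocount of 0.1, grey bars the range over the other pseudocounts and scalings, and the shaded band (−0.24 to 0.21) the middle 50% of all genes. *Gpx3* at 1.17 is the point beyond the dashed 2-fold line, and *Mgst3* at −0.57 lies just inside the dotted 1.5-fold line.

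A group of 8 genes of the set that are known as NRF2 targets in mouse lay on both sides of 0. This group was drawn up after the values were seen and is not a full list of such targets in the set. Of these 8 genes, 4 were higher (*Txnrd1*, *Srxn1*, *Gclc*, *Gclm*) and 4 lower (*Nqo1*, *Slc7a11*, *Txn*, *Gsr*), with log2 fold-changes from −0.51 to 0.55 and a median of −0.11. Grouped by chemistry, also after the values were seen, 3 of the 5 selenoproteins past the filter were higher (*Gpx3*, *Txnrd1*, *Txnrd2*) and 2 lower (*Gpx1*, *Gpx4*), with a median of 0.35. Of the 4 thioredoxin and glutaredoxin genes of mitochondria, *Txnrd2* was higher and *Txn2*, *Glrx2* and *Glrx5* lower (median −0.085).

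The members were also set beside genes of their own level. Of the 22 members between 10 and 100 FPKM, 1 differed by more than 1.5-fold (4.55%), while 9.08% of all 6058 genes at this level did. Of the 7 members averaging 100 FPKM or more, none passed 1.5-fold, against 8.91% of all 875 such genes. Of the 3 members between 1 and 10 FPKM none passed it either, against 22.2% of all 6164 such genes. With so few members per level these shares are a description only.

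Other genes of the same pathways placed the set in context. Their lists were written by function, but with earlier results of these data known. NRF2 target genes outside the set were mostly near even: 6 of 23 were higher and 17 lower, and their median was −0.051 (0.028 with upper quartile scaling). Of these genes 1 was more than 2-fold lower and none more than 2-fold higher (2.05% and 3.27% of all genes). *Pir*, the iron-binding protein pirin, was listed at 15.2 FPKM in *shβ-catenin* and 36.5 FPKM in shControl cells. *Cbr3*, a carbonyl reductase, was 1.97-fold lower, at 2.33 against 4.59 FPKM, and *Me1*, the cytosolic malic enzyme, 1.69-fold lower, at 13.4 against 22.6 FPKM. *Fth1*, the ferritin heavy chain, was 1.51-fold higher, at 2773 FPKM in *shβ-catenin* and 1840 FPKM in shControl cells. *Hmox1*, the heme oxygenase repressed by BACH1, and *Sqstm1*, the autophagy receptor p62 that binds KEAP1, were chosen after their values were seen. *Hmox1* was listed at 437 FPKM in *shβ-catenin* cells and 377 FPKM in shControl cells, and *Sqstm1* at 186 and 143 FPKM.

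Genes that control NRF2 had a median near 0, with *Prkcd* the farthest from it. Of 13 such genes past the filter, 9 had a higher and 4 a lower value, with a median of 0.040. *Prkcd*, protein kinase C δ, which can phosphorylate NRF2, was 2.99-fold higher, at 270 FPKM in *shβ-catenin* and 90.2 FPKM in shControl cells. *Mafg*, a small MAF partner of NRF2, was listed at 31.8 FPKM in *shβ-catenin* cells and 24.5 FPKM in shControl cells. *Palb2*, which can bind KEAP1, was listed at 4.05 and 3.02 FPKM, and *Crebbp*, a coactivator, at 11.3 and 8.98 FPKM.

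Genes of cysteine supply and use and genes linked to NADPH form a pair of lists. Of 8 genes of the cysteine list past the filter, 3 had a higher and 5 a lower value, and their median was −0.45. None passed 2-fold, while 3.27% of all genes were more than 2-fold higher and 2.05% lower. The list also holds *Csad* and *Cdo1*, which use cysteine rather than supply it. *Csad*, chosen after its values were seen, is among the 3 higher genes, at 17.3 FPKM in *shβ-catenin* and 16.9 FPKM in shControl cells. Without the filter on low values the median of the list was 0.030, over 13 genes, which is the value of *Csad*. *Slc3a2*, the heavy chain that carries xCT to the cell surface and was chosen after its values were seen, was listed at 103 FPKM in *shβ-catenin* cells and 141 FPKM in shControl cells. It stood beside *Slc7a11* in direction. *Ahcy*, which makes homocysteine, was 1.52-fold lower, at 43.1 against 65.5 FPKM. *Slc1a5*, a glutamine carrier, was listed at 30.6 FPKM in *shβ-catenin* and 43.9 FPKM in shControl cells, and *Ctns*, the lysosomal cystine exporter, at 8.04 and 11.7 FPKM. *Slc1a3*, a glutamate carrier, was higher, at 4.27 against 2.90 FPKM.

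Of 16 genes of the NADPH list past the filter, 2 were higher and 14 lower, with a median of −0.24. Of these 1 was more than 2-fold lower (2.05% of all genes). *Mthfd2*, a mitochondrial enzyme of folate metabolism, was listed at 39.3 FPKM in *shβ-catenin* cells and 85.1 FPKM in shControl cells, 2.17-fold lower. *Aldh1l2*, which yields NADPH from the same pathway, was listed at 26.5 and 51.5 FPKM, and *Nadk2*, the mitochondrial NAD kinase, at 14.6 and 27.7 FPKM.

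The list of target genes of ATF4, the factor of the amino acid response that also induces *Slc7a11*, had the lowest median. Of its 16 genes, which include *Atf4* itself, 3 were higher and 13 lower, with a median of −0.49. In this list 3 genes were more than 2-fold lower and none more than 2-fold higher (2.05% and 3.27% of all genes). *Psat1* and *Phgdh*, enzymes of serine synthesis, were 2.65-fold and 2.41-fold lower. *Psat1* was listed at 80.1 FPKM in *shβ-catenin* cells and 212 FPKM in shControl cells, and *Phgdh* at 52.5 and 127 FPKM. *Atf4* itself, chosen after its values were seen, was listed at 263 FPKM in *shβ-catenin* and 265 FPKM in shControl cells. Some genes, among them *Mthfd2*, *Aldh1l2*, *Me1* and *Chac1*, stand in more than 1 list, so the lists are not independent.

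Genes of glutathione use and breakdown outside the set comprised 7 higher and 12 lower of 19, with a median of −0.19. *Slc25a40*, a carrier that with *Slc25a39* has been linked to mitochondrial glutathione import, was 2.35-fold lower, at 1.20 FPKM in *shβ-catenin* and 2.82 FPKM in shControl cells. *Ggt7*, a γ-glutamyltransferase relative, was 1.55-fold higher, at 7.16 against 4.61 FPKM. *Gdap1*, a transferase-like protein of the mitochondrial outer membrane, was listed at 7.09 FPKM in *shβ-catenin* and 4.75 FPKM in shControl cells, and *Ptges*, the microsomal prostaglandin E synthase, at 38.7 and 27.4 FPKM. Thioredoxin partners were split evenly, 11 higher and 11 lower of 22 (median 0.0089, and −0.031 without the filter or at a mean of at least 5 FPKM). *Rrm1* and *Rrm2*, the subunits of ribonucleotide reductase, which thioredoxin and glutaredoxin reduce, were 1.96-fold and 1.73-fold lower, at 18.9 and 10.8 FPKM in *shβ-catenin* cells and 37.0 and 18.7 FPKM in shControl cells. *Map3k5*, the kinase ASK1 that thioredoxin holds inactive, was listed at 2.29 FPKM in *shβ-catenin* cells and 1.32 FPKM in shControl cells, and *Mlx*, a partner of the factors that induce *Txnip*, at 17.6 and 27.4 FPKM.

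Among genes past the filter, those that make selenoproteins had the narrowest range of the 8 lists. Of 10 such genes 6 were higher and 4 lower, with a median of 0.10. None passed 1.5-fold, while 8.22% of all genes were more than 1.5-fold higher and 7.02% lower. *Selenop*, which is in the list but below the filter and was chosen after its values were seen, is not counted. It was listed at 0.102 FPKM in *shβ-catenin* and 0.804 FPKM in shControl cells. *Sephs2*, which makes the selenium donor, was listed at 6.83 FPKM in *shβ-catenin* and 5.33 FPKM in shControl cells, and *Eefsec*, the elongation factor for selenocysteine, at 9.88 and 8.35 FPKM. *Pstk* and *Sephs1* were lower by at most 1.16-fold.

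**Figure D3:**
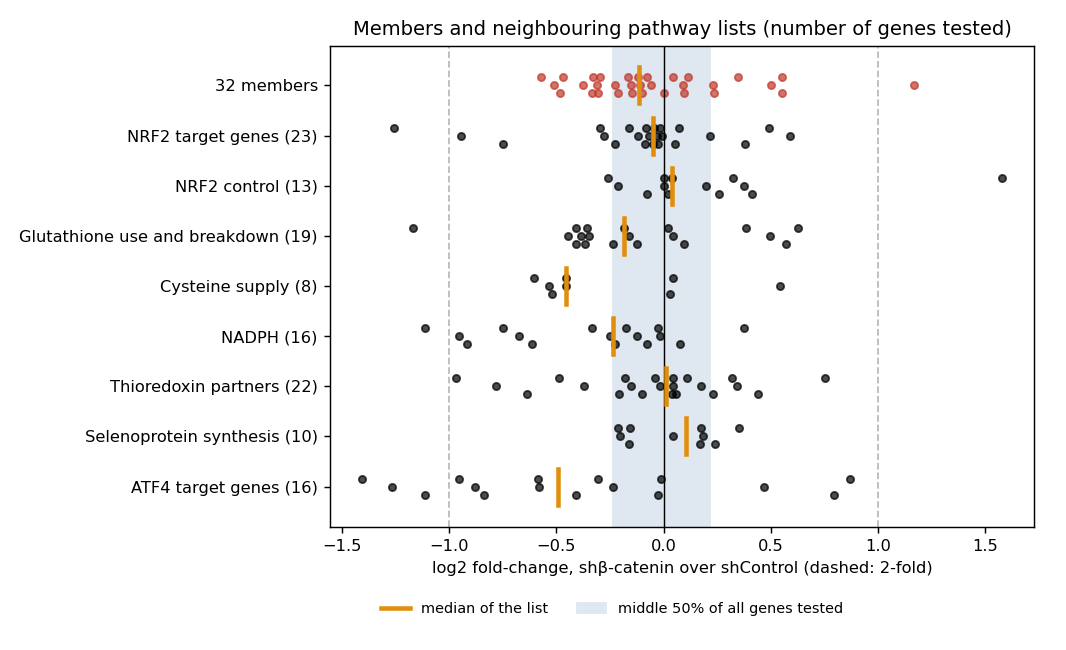
Log2 fold-change of *shβ-catenin* over shControl for the 32 members (red, top) and for the genes of at least 1 FPKM in 8 lists of related pathways (black), with the number of genes of each list and its median as an orange bar. All members but *Gpx3* lie within the 2-fold lines, as do most of all genes tested, and the median of the members is −0.12. The lists of ATF4 with its target genes (−0.49) and of cysteine supply and use (−0.45) have the lowest medians.

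*Ctnnb1*, the targeted gene, was listed at 69.0 FPKM in *shβ-catenin* cells and 530 FPKM in shControl cells, 7.69-fold lower, and all FPKM summed to 591905 and 609786. Read counts are not given, so the depth is known only as a ratio: the shControl library held about 1.20 times the fragments. Of 12 fibroblast markers 10 averaged 1 FPKM or more, 2 of them higher and 8 lower in *shβ-catenin* cells, with a median log2 fold-change of −0.59. The collagen genes *Col6a1* and *Col3a1* were 2.09-fold and 1.97-fold lower and *Fn1*, the gene of fibronectin, 1.80-fold higher. *Dcn* (2.42 FPKM in *shβ-catenin* and 0.316 FPKM in shControl cells) and *Thy1* (1.39 and 0.303 FPKM) were low for this cell type. Some leukocyte markers were higher in *shβ-catenin* cells, as *Gpx3* was. Of 9 leukocyte markers 4 had a mean of at least 1 FPKM and all 4 (*Cd74*, *Lyz*, *Cd14*, *Cd68*) were more than 2-fold higher (3.27% of all genes). The sum over the 9 was 237 FPKM in *shβ-catenin* and 74.5 FPKM in shControl cells. *Ptprc* (CD45) and *Cd3e* were listed at 0 in both libraries, and *Csf1r* and *Itgam* at 0.0547 and 0.0516 FPKM in *shβ-catenin* and 0.0228 and 0.0215 FPKM in shControl cells. *Tyrobp* was lower, at 0.498 FPKM in *shβ-catenin* against 0.828 FPKM in shControl cells. Whether the higher markers and *Gpx3* have a common source was not tested. *Pecam1*, an endothelial marker, was listed at 2.08 FPKM in *shβ-catenin* and 0.275 FPKM in shControl cells, and the 6 endothelial markers summed to 2.42 and 0.342 FPKM. Markers of keratinocytes, Schwann cells, adipocytes and mural cells summed to at most 5.70 FPKM per list in *shβ-catenin* and 7.37 FPKM in shControl cells, and melanocyte markers to 19.2 and 15.3 FPKM.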

How the data were processed

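Per the labels and the paper's methods, the authors prepared stranded mRNA libraries, sequenced paired ends and aligned them to the naked mole-rat genome (TopHat 2.0.13 with SAMtools 0.1.19 and Bowtie2 2.2.3). Cufflinks 2.2.1 then gave the FPKM values. The deposited FPKM values were used as they stand, and the gene annotation is not given in the sources used here. Of the 37520 entries 268 share a symbol, but each of the 36 members has a single entry. A RefSeq gene table of a newer assembly lists 35 of them, all protein coding, and holds no sequences.

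Summaries used genes averaging 1 FPKM or more and a pseudocount of 0.1 FPKM. Every member is named, and for each other list up to 4 genes with the largest absolute log2 fold-change, besides *Ctnnb1*; genes outside this rule are marked where they appear, and marker genes illustrate the cell type check. Besides, 1 gene that counts in its lists is not reported here. The members, roles and lists were chosen with earlier results of these data known.

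The relative depth is the commonest ratio among 5239 genes that both libraries list under 1 FPKM. Whole fragments are the smallest pair, of a total up to 60, that gives a gene's ratio within 0.002%, so multiples are possible, and intervals cover counting error only. Of 5649 genes above 0 in both with a mean under 1 FPKM, 64.2% had such a pair. Alternatives were pseudocounts of 0.01 and 1, scaling to the upper quartile or to the median ratio, no filter, a mean of at least 5 FPKM, symbols with a single entry, and totals up to 40 fragments. Scripts were tested on simulated data and ran in Python 3.11.15 (scipy 1.17.1, numpy 2.4.6, matplotlib 3.10.9, pandas 2.3.3).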

Additional observations from a re-analysis of the deposited data

How the results depend on the processing

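Median ratio and upper quartile scaling raised every log2 fold-change by up to 0.016 and 0.079, which is the order of many differences here. With upper quartile scaling 3 members in place of 1 were more than 1.5-fold higher, and the medians turned to 0.048 for glutathione synthesis, 0.0017 for the peroxidases and 0.028 for NRF2 target genes outside the set, as did the log2 fold-changes of *Gpx1* (0.0017) and *Txn2* (0.020). Without the filter on low values 2 members passed 2-fold and 4 passed 1.5-fold upward, and the medians were 0.0093 for the peroxidases, 0.030 for cysteine supply and −0.031 for thioredoxin partners, the last also at a mean of at least 5 FPKM (−0.031). The calls added by dropping the filter are of the low *Gpx2*, *Ggt1* and *Ggt5*. The log2 fold-change of *Gpx2* was 3.83 at a pseudocount of 0.01 and that of *Ggt5* 2.64, against 1.21 and 0.61 at 0.1, and at a pseudocount of 1 that of *Gpx2* was 0.18. The median over the members stayed below 0 under each of these settings (−0.12 to −0.040), which covered 32 members, 36 without the filter (−0.088) or 31 at a mean of at least 5 FPKM (−0.11), and *Gpx3* was the single member of at least 1 FPKM past 2-fold. For all genes the count more than 2-fold higher was 236 with a pseudocount of 1, 134 at a mean of at least 5 FPKM and 2013 without the filter, in place of 428, and 64.7% of 1.5-fold calls were higher with upper quartile scaling in place of 54.0%. No paired analysis was possible because each group has 1 library, and for the same reason no library could be left out. Absolute depth is unknown, and no direction is read from the 4 members under 1 FPKM.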
